A study of Sus scrofa with 24 samples.

Results

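The low residual feed intake line of pigs was compared with the high line in subcutaneous fat at 115 kg body weight, with both lines given free access to feed. Residual feed intake is the feed a pig eats beyond what its growth and upkeep predict, so the low line (RFIneg) eats less than predicted and the high line (RFIpl) more. The comparison held 16 of the 24 arrays of the study, 8 RFIneg and 8 RFIpl, chosen by their sample titles, with 1 pig per array. The other 8 arrays came from high line pigs given the low line's amount of feed (RFIplR). They entered the fit, so that all 3 groups gave one estimate of the spread. The age and sex of the pigs are not given in the sources used here. Total RNA was labelled with Cy3 and hybridised to 1-colour Agilent arrays of 60-base probes.

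White fat stores energy as triglyceride in a single large droplet per cell. Fat cells make fatty acids from glucose, coat the droplet with perilipin and CIDE proteins, and release fatty acids and glycerol through lipases when energy is needed. In the pig, fat tissue is the main site of fatty acid synthesis, and fat cells also secrete leptin and adiponectin.

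A level is given here as log2 of the processed intensity minus the 75th percentile of the same array, so 0 is the level of that percentile and a difference of 1 is a doubling. Differences are RFIneg minus RFIpl from limma, with a block for the brightness of the array, and stand with their SE. A probe or gene was called when its limma p, adjusted over all probes by the method of Benjamini and Hochberg, was under 0.05. Each gene was represented by its kept probe with the highest mean.

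Probes of 4 genes among the leading rises and falls are shown here, as examples of what the arrays read. Other probes had larger differences. The first of each pair shares the capital letters with the second, so that the 2 CES1 probes and the 2 CA3 probes each read largely one stretch of transcript, while the single probes of CLDN4 and S100A12 are the only kept probes of their genes. All are given 5′ to 3′ as in the scanner files.
CES1 probe 1: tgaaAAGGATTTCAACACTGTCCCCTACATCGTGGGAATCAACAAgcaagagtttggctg
CES1 probe 2: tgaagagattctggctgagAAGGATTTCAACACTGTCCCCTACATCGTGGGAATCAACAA
CA3 probe 1: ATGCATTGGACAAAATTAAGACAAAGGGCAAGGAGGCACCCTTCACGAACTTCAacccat
CA3 probe 2: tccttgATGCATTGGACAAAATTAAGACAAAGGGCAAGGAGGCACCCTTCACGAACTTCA
CLDN4 probe: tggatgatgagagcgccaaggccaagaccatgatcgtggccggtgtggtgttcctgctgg
S100A12 probe: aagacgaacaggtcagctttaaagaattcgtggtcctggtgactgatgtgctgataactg
The shared stretch was 41 bases in the CES1 pair, whose differences were 3.03 and 2.83, and 54 bases in the CA3 pair, whose differences were 2.59 and 2.59.

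The 75th percentile of the signal was 414 to 663 on 17 bright arrays and 69.4 to 94.4 on 7 dim ones. The dim arrays included RFIneg 1 and 7 and RFIpl 5 and 6, which left 6 bright arrays in each line. The share of probes well above background ran from 43.1 to 79.9% over the 24 arrays, and no spot was saturated. Of the fat cell identity list, 23 genes were measured, among them the defining markers ADIPOQ, PLIN1, FABP4, CIDEC, LIPE and PPARG. With the fitted effect of the dim class taken out, the median level of the list was between 4.68 and 5.74 on each of the 16 arrays.

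Placed between the means of RFIneg and RFIpl, the array labelled RFIpl 3 stood on the side of the low line. Each array was left out in turn, the remaining arrays were fitted, and the left-out array was placed between the group means over the genes called without it. RFIpl 3 was nearer to RFIpl for 46 of 602 genes, or 7.64%, with a median position of -0.02, where 0 is the RFIneg mean and 1 the RFIpl mean. The 15 other arrays were nearer to their own group for 56.4 to 94.4% of their genes, the lowest being RFIneg 8. No array was placed against the restricted group. The RFIplR mean was nearer to RFIneg than to RFIpl for all 28 genes with the largest called rises and falls. The placement therefore cannot tell whether RFIpl 3 was more like RFIneg or more like RFIplR. Results are therefore given with all 16 arrays and, where a count or call turns on it, also without RFIpl 3. Leaving out the array farthest from its group narrows the spread of that group by construction.

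**Figure D1:**
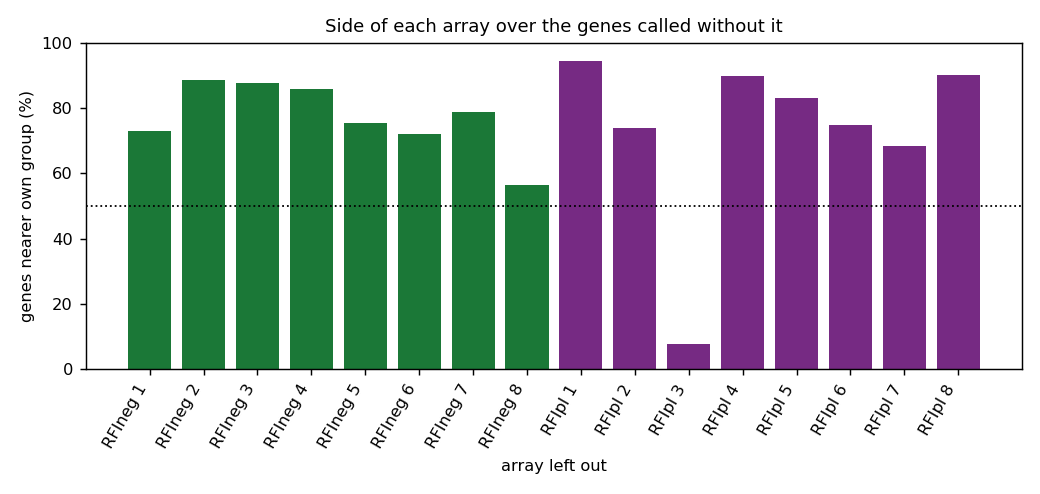
Share of genes (%, y axis) for which each array (x axis) lay nearer to the mean of its own group, over the genes called when that array was left out. RFIpl 3 is at 7.64%, and the other arrays lie between 56.4 and 94.4%, above the dotted line at 50%.

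Markers of neighbouring tissues were high on 4 other arrays, and their part in the results was not tested. The medians given here are adjusted for brightness in the same way, and the sums are not. The 17 measured skeletal muscle markers had a median level of 6.37 on RFIpl 2 and 1.06 on RFIpl 1, against -1.95 to -0.40 on the RFIneg arrays. The sum of their log2 levels ran from -29.2 to -2.75 in RFIneg and from -24.8 to 92.7 in RFIpl. The 12 keratinocyte and epithelial markers had their highest median levels on RFIpl 7, at 0.12, and RFIpl 8, at -0.55, against -3.65 to -2.58 in RFIneg, and their sum ran from -40.1 to -32.4 in RFIneg and from -34.7 to 8.06 in RFIpl. In pieces of tissue, more cells of a type and more RNA per cell cannot be told apart.

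**Figure D2:**
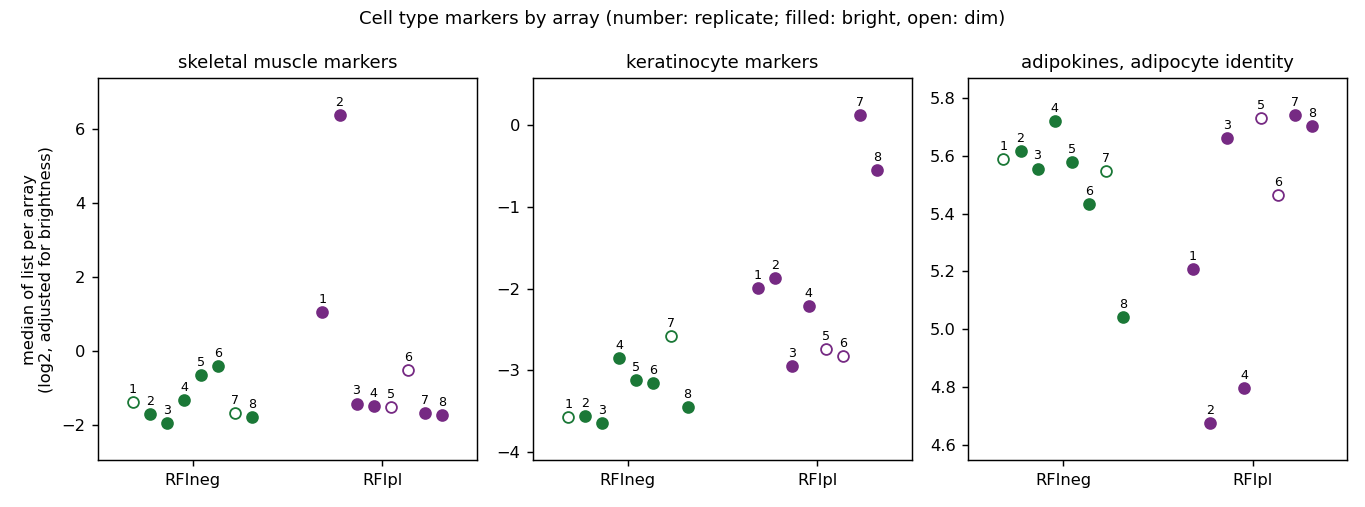
Median log2 level per array, adjusted for brightness (y axis), of 17 skeletal muscle markers, 12 keratinocyte and epithelial markers and 23 fat cell genes in the 2 lines (x axis). Each point is 1 array with its replicate number, filled if bright and open if dim; RFIpl 2 stands at 6.37 for muscle, and RFIpl 7 and 8 stand at 0.12 and -0.55 for keratinocyte markers.

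Of 28606 probes kept, 1895 were called (6.62%), 1236 higher in RFIneg (4.32%) and 659 lower (2.30%). With each array centred on its median, 78.0% of the called probes were higher, against 65.2% in the main scaling. At the level of genes, 323 of 4308 were called (7.50%), 241 higher in RFIneg (5.59%) and 82 lower (1.90%). These counts come from the fit over 24 arrays. Fitted over only the 16 arrays of the 2 lines, limma called 1300 probes and 206 genes, 141 of the genes higher and 65 lower. The median difference over all 4308 genes was 0.03, the median of the called rises was 0.59 and that of the called falls -0.76. Differences were mostly moderate, with 37 genes over 1 and 25 below -1.

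Without RFIpl 3, 602 genes were called, 425 higher (9.87%) and 177 lower (4.11%). They included 321 of the 323 genes called with all arrays, each with the same sign. The count fell to 188 genes without RFIneg 3, 208 without RFIneg 7, 180 without RFIpl 1, 169 without RFIpl 4 and 202 without RFIpl 8, and lay between 226 and 350 without any 1 of the others. The order of the arrays in single genes was rarely clean. Only STC1 and SNX16 had no overlap between all 8 RFIneg and all 8 RFIpl arrays (2 genes of 4308, 0.0464%), and both are named for that reason after their values were seen. STC1, the secreted calcium and phosphate regulator stanniocalcin 1, had levels of 0.43, 0.83 and 1.08 (lowest, median, highest) in RFIneg and 1.08, 1.79 and 2.76 in RFIpl (-1.08 ± 0.25, adjusted p = 0.0155). SNX16, an endosomal sorting nexin, had levels of 1.03, 1.20 and 1.69 in RFIneg and 0.227, 0.542 and 0.997 in RFIpl (0.68 ± 0.12, adjusted p = 0.0031). Among the 12 bright arrays alone, 39 genes did not overlap (0.905%), of which 24 were called. Without RFIpl 3 that number was 311 (7.22%).

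The brightness classes are given as a description, since the genes were called on these same arrays, which favours equal signs within classes, slides and days. All 323 called genes had the same sign in the bright arrays (6 against 6), and 321 had it in the dim arrays (2 against 2), the exceptions being OPRL1 and MOXD1. Tested alone by limma, the bright arrays gave 45 called genes and the dim arrays 0, with 2726 probes at an unadjusted p under 0.05. A test of whether the difference depended on the class called 7 of 28606 probes (1275 at an unadjusted p under 0.05), none of them the probe of a called gene. On the 5 slides that held both lines, 286 to 323 of the 323 genes kept their sign, the lowest number being on slide 1, which held RFIpl 3. Within scan days 1, 2 and 3 the number was 323, 323 and 314. With slide and brightness both as blocks the sign was the same for all 323 and the call for 75, and without any block 11 were called.

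**Figure D3:**
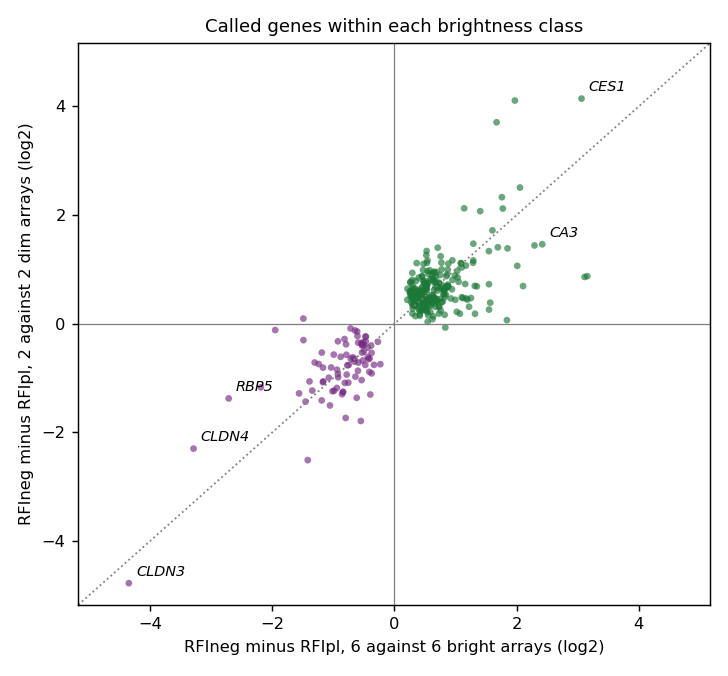
Difference RFIneg minus RFIpl (log2) of the 323 called genes in the bright arrays (x axis, 6 against 6) and in the dim arrays (y axis, 2 against 2). Each point is 1 gene, green if higher and purple if lower in RFIneg, and 321 of 323 lie in the quadrants of equal sign; the dotted line marks equal differences.

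CES1, a liver-type esterase that can also cleave stored triglyceride, had the largest rise in the low line (it is named carboxylesterase 3 on the array, CES1 in the current RefSeq table). Its levels were 5.15, 5.33 and 6.64 (lowest, median, highest) in RFIneg and 0.34, 1.58 and 5.64 in RFIpl, a difference of 3.33 ± 0.59 or 10.1-fold (adjusted p = 0.00357). The RFIneg arrays lay close together, while in RFIpl the array labelled RFIpl 3 was inside their range and every other array below it. All 7 CES1 probes were called, with differences of 2.62 to 3.35. CYP2A19, a porcine cytochrome P450 that breaks down skatole, had levels of 0.60, 4.79 and 6.12 in RFIneg and -0.11, 0.93 and 5.44 in RFIpl (2.55 ± 0.60, adjusted p = 0.016). The groups overlapped through RFIpl 3 and through the dim arrays RFIneg 1 and 7. UGT1A6, which couples glucuronic acid to drugs and phenols, was higher by 1.75 ± 0.45 (adjusted p = 0.0223).

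CA3, the carbonic anhydrase that is abundant in the cytoplasm of fat cells, was 4.53-fold higher. Its levels were 6.04, 6.91 and 7.22 in RFIneg and 3.39, 4.47 and 6.46 in RFIpl (2.18 ± 0.41, adjusted p = 0.00441), and all 20 of its probes were called, between 2.07 and 2.59. RFIpl 3 held the highest RFIpl level, and the next highest, RFIpl 2 at 5.62, lay below every RFIneg array. RFIpl 2 was also the array with the highest muscle markers, whose part in its CA3 level was not tested. MYOC, the secreted glycoprotein myocilin, had levels of 6.32, 7.31 and 7.62 in RFIneg and 3.60, 4.94 and 6.99 in RFIpl (1.86 ± 0.34, adjusted p = 0.00392). SDR16C5, a dehydrogenase that oxidises retinol, had levels of 3.14, 5.35 and 5.86 in RFIneg and 0.85, 2.93 and 5.74 in RFIpl (2.17 ± 0.31, adjusted p = 0.00164). RFIpl 3 again lay among the RFIneg arrays for SDR16C5, the dim arrays of both lines were the lowest of their groups, and without RFIpl 3 the difference was 2.50. SFRP5, a Wnt antagonist secreted by fat cells, was higher by 1.63 ± 0.32 (adjusted p = 0.00524).

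The calgranulins, small calcium-binding proteins of neutrophils and other myeloid cells, were higher together. S100A12 had levels of 1.96, 2.82 and 3.32 in RFIneg and -0.38, 0.73 and 2.64 in RFIpl (1.90 ± 0.25, adjusted p = 0.00143). Within the bright arrays the lines did not overlap for S100A12, and the highest RFIpl level was that of RFIpl 3. S100A8 had levels of 0.53, 1.17 and 2.45 in RFIneg and -3.38, -0.73 and 1.15 in RFIpl (2.18 ± 0.34, adjusted p = 0.00228). S100A9, the partner of S100A8, was higher by 1.18 ± 0.31 (adjusted p = 0.0267), and ALOX5AP, which leukotriene synthesis needs, by 0.67 ± 0.15 (adjusted p = 0.0106). These 4 were called of 7 neutrophil and calgranulin genes measured, 0 were lower, and the median of the 7 was 0.67. With slide and brightness as blocks 3 were called. Other neutrophil genes of the list were not called, namely LTF at -1.07, CHI3L1 at -0.17 and ELANE, whose adjusted p was 0.994.

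The other leading rises were in genes of several kinds. UCHL1, a ubiquitin hydrolase best known from neurons, differed by 2.50 ± 0.45 (adjusted p = 0.00363), and SNCG, a synuclein of nerve and fat cells, by 2.08 ± 0.44 (adjusted p = 0.00855). These were the 2 called of 6 nerve and Schwann cell markers, whose median was -0.11. KLKB1, plasma prekallikrein, differed by 2.59 ± 0.53 (adjusted p = 0.00665) and was well above background on 6 RFIneg and 5 RFIpl arrays. Of the 2 lines, only RFIneg, where KLKB1 was high, met the filter of 6 such arrays, and its RFIpl levels are uncertain. With slide and brightness as blocks in limma it was not called (adjusted p = 0.0578). MTMR7, a phosphoinositide phosphatase, differed by 1.77 ± 0.45 (adjusted p = 0.0218), and WDFY3, an adaptor of selective autophagy, by 1.73 ± 0.33 (adjusted p = 0.00454).

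CLDN3 and CLDN4, which build tight junctions between epithelial cells, were the genes with the largest falls in the low line. CLDN3 had levels of -5.28, -3.59 and -2.28 in RFIneg and -3.78, 0.96 and 2.93 in RFIpl, a difference of -4.45 ± 0.66 (adjusted p = 0.00164). The 7 RFIpl arrays other than RFIpl 3 all lay above every RFIneg array, and RFIpl 3 was at -3.78. Only 4 RFIneg arrays were well above background for CLDN3, so their levels are uncertain, and its second probe differed by -0.63 and was not called. CLDN4 had levels of -6.94, -5.62 and -2.57 in RFIneg, where 3 arrays were well above background, and -5.97, -1.93 and -0.61 in RFIpl (-3.04 ± 0.57, adjusted p = 0.00448). Of the 2 lines compared, only RFIpl, where both genes were high, met the filter of 6 arrays well above background. Such entry to the test favours calling a fall. With normexp background correction CLDN4 was at -1.10 and was not called (adjusted p = 0.117).

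The claudins belong to the keratinocyte and epithelial list, whose 10 other measured members were not called with all arrays. Without RFIpl 3 a further member was called lower, EPCAM, an epithelial adhesion molecule (-1.76, adjusted p = 0.0449). The median of the 12 was -1.20, and -0.32 without RFIpl 7 and 8, the arrays with the highest levels of these markers. Without those arrays CLDN3 was at -4.38 (adjusted p = 0.0106) and CLDN4 at -2.87 (adjusted p = 0.0219).

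RBP5, a cellular binding protein for retinol (named CRABP1 on the array), had levels of -4.57, -0.02 and 2.20 in RFIneg and -1.10, 2.65 and 3.30 in RFIpl (-2.38 ± 0.67, adjusted p = 0.0345). RFIneg 6 lay far below all others and RFIpl 3 below every RFIneg array but that one. CYP4F2, which hydroxylates fatty acids and leukotrienes at their far end, had levels of -3.46, -2.48 and -1.55 in RFIneg and -3.72, -0.53 and 0.91 in RFIpl (-1.69 ± 0.48, adjusted p = 0.0371). Its 2 lowest RFIpl arrays were RFIpl 2 and RFIpl 3, inside or below the RFIneg range, and the others lay above it. DPP4, a cell surface peptidase that marks fat progenitors, had levels of -1.79, -1.05 and -0.47 in RFIneg and -1.62, 0.09 and 1.39 in RFIpl (-1.19 ± 0.35, adjusted p = 0.0418). RBP5, CHRM1 and DPP4 were no longer called without RFIpl 2 (adjusted p = 0.0656, 0.0678 and 0.0703), the array with the highest muscle markers.

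The remaining leading falls were the following. PI15, a secreted peptidase inhibitor, differed by -1.93 ± 0.43 (adjusted p = 0.0123), SRPX, a secreted sushi repeat protein, by -1.32 ± 0.23 (adjusted p = 0.00346), and MFAP2, a component of microfibrils, by -1.31 ± 0.32 (adjusted p = 0.0192). CHRM1, a muscarinic acetylcholine receptor, differed by -1.49 ± 0.43 (adjusted p = 0.0401) and did not overlap between the bright arrays. KCNQ5, a potassium channel, was at -1.45 and was well above background on only 3 RFIneg arrays, and SH3GL3, an endophilin, was at -1.49 and above background on 5, so the RFIneg levels of both are uncertain. Of the 2 lines, only RFIpl, where both were high, met the filter on background. LVRN, an aminopeptidase, was at -1.24, MCM3, part of the replication helicase, at -1.17, and MAPK13, a p38 kinase, at -1.16, each called.

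**Figure D4:**
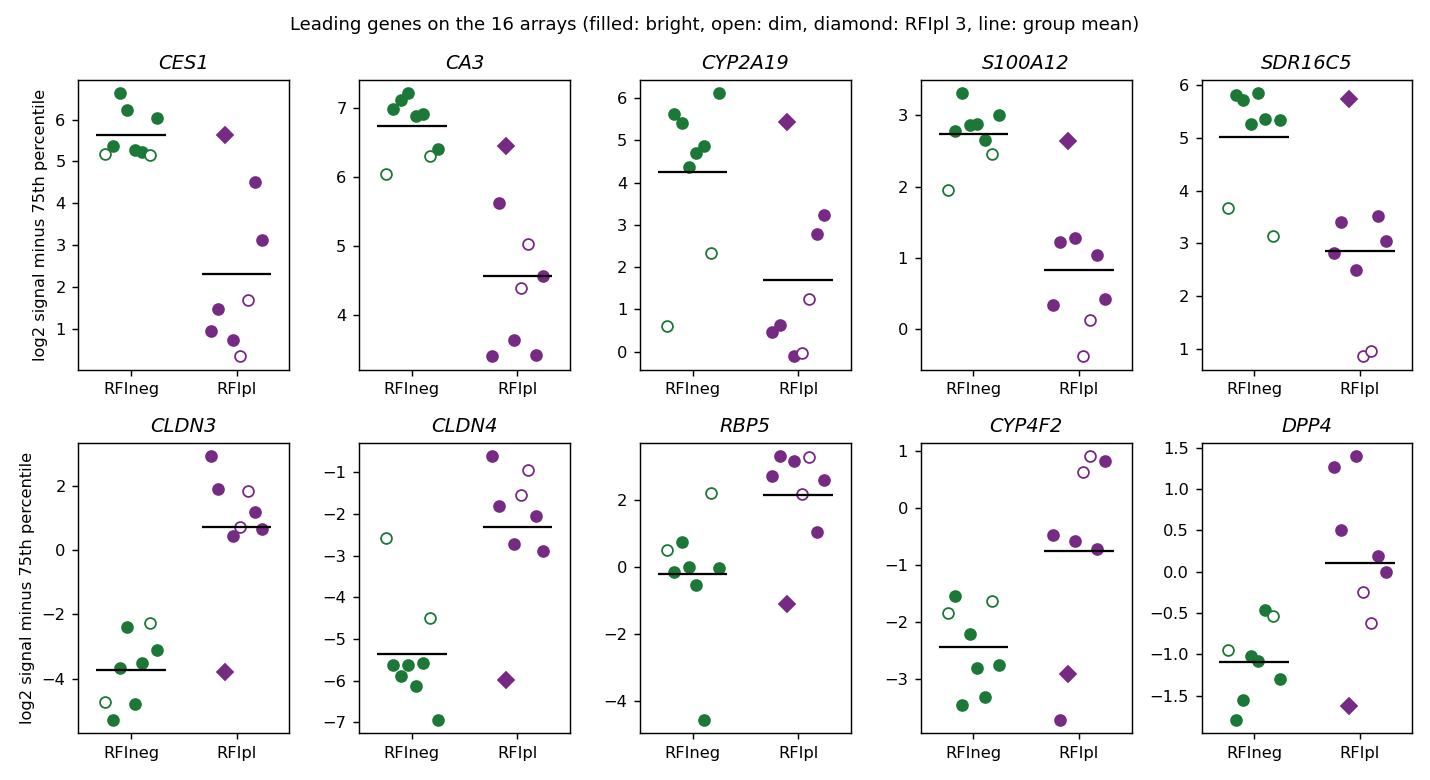
Levels (log2 signal minus the 75th percentile of the array, y axis) of 10 leading genes on the 8 RFIneg and 8 RFIpl arrays (x axis), filled if bright and open if dim, with the group mean as a line. RFIpl 3 (diamond) lies among the RFIneg arrays for CES1 at 5.64 and for CLDN3 at -3.78, while the other RFIpl arrays lie apart from RFIneg for both genes.

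Of these 28 leading genes, 28 were also called without RFIpl 3, 25 without RFIpl 2 and 18 without RFIpl 1 and 2, the arrays with high muscle markers. The number was 20 without RFIpl 7 and 8, 19 without the 3 arrays of slide 3 and 17 with normexp correction. With slide and brightness as blocks 15 were called: CES1, CA3, UCHL1, S100A8, S100A12, SDR16C5, SNCG, MYOC, WDFY3, SFRP5, CLDN3, CLDN4, RBP5, SH3GL3 and SRPX. All kept probes of each of the 28 genes had one sign. Among the bright arrays, RFIpl 3 lay within or beyond the RFIneg range on the RFIneg side for 25 of the 28 and inside the range of the other RFIpl arrays for 3.

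Of 13 lipolysis genes measured, 5 were called higher and 0 lower, with a median of 0.25, beside 5.59% higher, 1.90% lower and a median of 0.03 over all genes, against which the other list counts are also to be read. The calls did not hold under all settings: 2 of the 13 were called without RFIpl 7 and 8, 1 without RFIpl 1 and 2 and 0 with slide and brightness as blocks. LIPE, hormone-sensitive lipase, had levels of 7.61, 7.90 and 8.08 in RFIneg and 6.82, 7.25 and 8.16 in RFIpl (0.55 ± 0.14, adjusted p = 0.0186), and the highest RFIpl level was that of RFIpl 3. ADORA1, the adenosine receptor that restrains lipolysis, was higher by 0.86 ± 0.19 (adjusted p = 0.00916), AQP7, the glycerol channel, by 0.79 ± 0.19 (adjusted p = 0.0169), and PLIN1, the droplet coat protein that gates lipase access, by 0.48 ± 0.12 (adjusted p = 0.022). NPR1, the receptor for natriuretic peptides, was higher by 0.43 ± 0.13 (adjusted p = 0.0427). PNPLA2, the lipase of the first step, was at 0.10 (adjusted p = 0.729), and ABHD5, its activator, at -0.56 (adjusted p = 0.28). The called genes included a lipase and also ADORA1 and PLIN1, which restrain lipolysis.

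Of 16 triglyceride and droplet genes, 2 were called higher, CES1 and CIDEC, and 1 lower, PCK2, with a median of 0.21. CIDEC, which fuses small droplets into large ones, had levels of 6.76, 7.68 and 8.02 in RFIneg and 5.84, 6.52 and 7.89 in RFIpl (0.76 ± 0.20, adjusted p = 0.0244). PCK2, the mitochondrial phosphoenolpyruvate carboxykinase, differed by -0.56 ± 0.16 (adjusted p = 0.0414). DGAT1 and DGAT2, which add the last fatty acid to triglyceride, were at 0.12 and 0.23 and not called. Among 15 genes of fatty acid uptake and binding none was called by limma with all arrays, 2 were called higher without RFIpl 3, and the median was 0.09; the smallest p was that of DBI, the acyl-CoA binding protein (0.36, adjusted p = 0.0698).

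The genes of fatty acid synthesis leaned upward, mostly without passing the test. All 12 measured members had positive differences, with a median of 0.63, and 1 was called, ELOVL5, which lengthens polyunsaturated fatty acids (1.01 ± 0.29, adjusted p = 0.0354). Without RFIpl 3, 4 were called higher: ELOVL5, PGD, ACSS2 and ME1. FASN, fatty acid synthase, had levels of 8.33, 8.71 and 9.49 in RFIneg and 6.05, 8.59 and 8.94 in RFIpl (0.63 ± 0.27, adjusted p = 0.165). SCD, the desaturase that makes oleate, had levels of 7.90, 8.20 and 9.43 in RFIneg and 4.36, 8.02 and 8.69 in RFIpl (0.77 ± 0.35, adjusted p = 0.194). The lowest value of both genes was on RFIpl 2, and the groups overlapped widely. Without RFIpl 2, whose muscle markers were highest, the median of the list was 0.29, 0 of its members were called and FASN was at 0.34 (adjusted p = 0.226). ACACA, acetyl-CoA carboxylase, was at 0.10 ± 0.42 (adjusted p = 0.922), and at -0.33 without RFIpl 2.

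Of 18 fatty acid oxidation genes, 4 were called higher and 0 lower, with a median of 0.27, and 1 was called with slide and brightness as blocks. ACADL, a dehydrogenase for long acyl chains, was higher by 0.86 ± 0.21 (adjusted p = 0.0172), HADH by 0.74 ± 0.17 (adjusted p = 0.013), the peroxisomal enzyme EHHADH by 0.57 ± 0.17 (adjusted p = 0.0477) and catalase (CAT) by 0.56 ± 0.09 (adjusted p = 0.0031). CAT did not overlap between the bright arrays, and all 9 of its probes were called. CPT1A and CPT1B, which admit fatty acids to mitochondria, were at -0.39 and -0.32 and were not called.

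Of 18 citrate cycle and pyruvate genes, 2 were called higher, 1 lower, and the median was 0.31. CS, citrate synthase, had levels of 4.35, 6.52 and 6.93 in RFIneg and 3.84, 5.67 and 6.48 in RFIpl (0.68 ± 0.14, adjusted p = 0.00619), and all 7 of its probes were called. PC, pyruvate carboxylase, was higher by 0.46 ± 0.11 (adjusted p = 0.0174), and IDH2, the mitochondrial NADP isocitrate dehydrogenase, lower (-0.44 ± 0.10, adjusted p = 0.0123). Of 17 respiratory chain genes limma called none with all arrays and 1 without RFIpl 3. Their median of 0.08 turned to -0.04 with quantile scaling. UCP3, a mitochondrial anion carrier, had levels of 4.75, 5.95 and 6.64 in RFIneg and 3.21, 3.99 and 5.80 in RFIpl (1.57 ± 0.31, adjusted p = 0.00536), with RFIpl 3 the highest of its group. With slide and brightness as blocks in limma UCP3 was not called (adjusted p = 0.0522). In the main fit it was the 1 gene called of 11 on uncoupling and mitochondrial regulation, whose median was 0.04 (-0.04 with normexp correction). Without RFIpl 3, 2 members were called lower, UCP2 (-0.81, adjusted p = 0.0277) and CITED1 (-0.54, adjusted p = 0.0043), and without RFIpl 2, 1 member was called lower.

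Of 18 genes listed under amino acid metabolism, 5 were called higher and 1 lower, with a median of 0.50. DBT, the core of the branched-chain keto acid dehydrogenase, was higher by 0.68 ± 0.19 (adjusted p = 0.0299), ALDH6A1, of valine breakdown, by 0.75 ± 0.16 (adjusted p = 0.0106), and OXCT1, which activates ketone bodies, by 0.81 ± 0.21 (adjusted p = 0.0241). GLUD1, glutamate dehydrogenase, was higher by 0.37 ± 0.10 (adjusted p = 0.0254), AUH, of leucine breakdown, by 0.62 ± 0.17 (adjusted p = 0.034), and SHMT2, of serine breakdown, lower (-0.49 ± 0.14, adjusted p = 0.0418). Without RFIpl 3 the counts were 8 higher and 2 lower, without RFIpl 2 they were 3 and 0, and with slide and brightness as blocks 1 and 0. Glycolysis (16 genes, median 0.14) and cholesterol synthesis and uptake (17 genes, median 0.24) held no gene called by limma with all arrays; without RFIpl 3 the counts were 0 for glycolysis (1 higher without RFIpl 2) and 2 higher and 2 lower for cholesterol.

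Of 23 adipokine and fat cell identity genes, 8 were called higher and 0 lower, with a median of 0.29, and 20 differences were positive. SFRP5, AGT, ADIPOR2 and ADIPOQ were called besides LIPE, CIDEC, AQP7 and PLIN1, which the lipolysis and droplet lists also hold. ADIPOQ, adiponectin, had levels of 7.34, 8.21 and 8.35 in RFIneg and 7.11, 7.97 and 8.19 in RFIpl, a small difference of 0.27 ± 0.08 (adjusted p = 0.0385), and the bright arrays did not overlap, though RFIpl 3 lay just below the lowest of RFIneg. AGT, angiotensinogen, was higher by 0.83 ± 0.20 (adjusted p = 0.017), and the adiponectin receptor ADIPOR2 by 0.45 ± 0.12 (adjusted p = 0.0317). LEP, leptin, had levels of -0.50, 3.49 and 3.75 in RFIneg and -0.06, 1.10 and 3.94 in RFIpl (1.36 ± 0.46, adjusted p = 0.0767). Leptin was high on 6 RFIneg arrays and on RFIpl 3, lowest in RFIneg on its dim arrays 1 and 7, and called without RFIpl 3 (1.67, adjusted p = 0.012). The list had 3 called genes without RFIpl 7 and 8, 1 without RFIpl 1 and 2 and 2 with slide and brightness as blocks.

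Of 18 factors of fat cell formation, KLF15, a transcription factor induced late in that process, was the 1 called (0.95 ± 0.19, adjusted p = 0.00665), and PPARG, the central regulator, was at -0.07 ± 0.15 (adjusted p = 0.832). Without RFIpl 3, 1 gene of the list was also called lower, NR1H3 (-0.38, adjusted p = 0.0371). With slide and brightness as blocks in limma KLF15 was not called (adjusted p = 0.0521). LPL, the lipase that frees fatty acids from circulating lipoproteins, was at 0.45 ± 0.19 (adjusted p = 0.157).

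**Figure D5:**
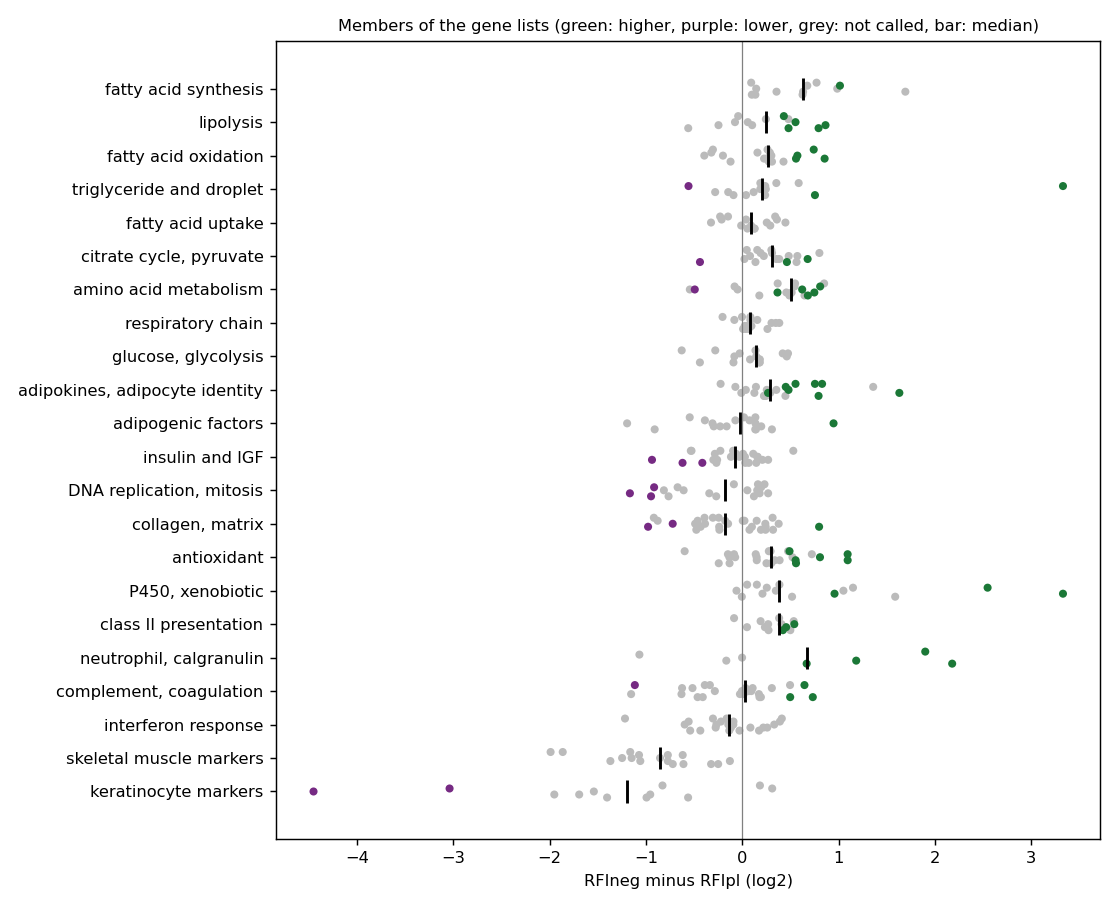
Difference RFIneg minus RFIpl (log2, x axis) of each measured member of 22 gene lists (y axis), green if called higher, purple if called lower and grey if not called, with a bar at the median of the list. The medians run from -1.20 for keratinocyte markers to 0.67 for neutrophil and calgranulin genes, and skeletal muscle markers lie at -0.85 with no called member.

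Growth factor and cell division genes were among the falls. Of 26 insulin and IGF genes, 3 were called lower and 0 higher, with a median of -0.08. IGF2, an insulin-like growth factor, had levels of 5.85, 6.12 and 6.35 in RFIneg and 6.18, 6.53 and 7.01 in RFIpl (-0.41 ± 0.11, adjusted p = 0.0321). The ranges overlapped between 6.18 and 6.35. IGFBP5, a binding protein of the IGFs, differed by -0.94 ± 0.22 (adjusted p = 0.0146) and the kinase AKT1 by -0.62 ± 0.15 (adjusted p = 0.0168). Without RFIpl 3, 2 genes of the list were called higher and 4 lower. The counts were 0 higher and 2 lower without RFIpl 2, and 0 and 1 without RFIpl 1 and 2. With slide and brightness as blocks none was called.

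Of 18 replication and mitosis genes, 3 were called lower, MCM3, the clamp loader subunit RFC4 (-0.95 ± 0.26, adjusted p = 0.0335) and the cyclin CCND2 (-0.91 ± 0.20, adjusted p = 0.00945), and 0 higher, with a median of -0.18. MCM3 was well above background on only 4 RFIneg arrays and RFC4 on 5, so their RFIneg levels are uncertain. Of the 2 lines, only RFIpl, where both were high, met the filter on background. With normexp correction MCM3 was at -0.35 and RFC4 at -0.30, neither called (adjusted p = 0.716 and 0.81). With slide and brightness as blocks 0 of the 18 genes were called. Of 29 collagen and matrix genes, 2 were called lower, the collagen chain COL1A2 (-0.72 ± 0.19, adjusted p = 0.0273) and periostin (POSTN, -0.98 ± 0.30, adjusted p = 0.0478), and 1 higher, COL5A3 (0.80 ± 0.21, adjusted p = 0.028). The median of the list was -0.18, and without RFIpl 3 the counts were 5 lower and 2 higher. DPP4 was the 1 called of 7 fibroblast and progenitor markers, whose median was -0.15. Of the 7, 2 were called lower without RFIpl 3 and 0 with slide and brightness as blocks.

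Of 25 antioxidant genes, 6 were called higher and 0 lower with all arrays, with a median of 0.29. Without RFIpl 3 the counts were 6 higher and 2 lower, the latter PRDX4 (-0.28) and HMOX1 (-0.66), without RFIpl 2 they were 4 and 0, and with slide and brightness as blocks 1 and 0. SOD3, the extracellular superoxide dismutase, was higher by 1.10 ± 0.25 (adjusted p = 0.0144), NQO1, a quinone reductase, by 1.09 ± 0.29 (adjusted p = 0.0282), PRDX6, a peroxiredoxin, by 0.81 ± 0.21 (adjusted p = 0.0237), TXNRD2, the mitochondrial thioredoxin reductase, by 0.49 ± 0.13 (adjusted p = 0.0225) and MGST1, a microsomal glutathione transferase, by 0.55 ± 0.16 (adjusted p = 0.0391). CAT was also among the 6. Of 15 P450 and xenobiotic genes, CES1, CYP2A19 and EPHX2, the soluble epoxide hydrolase (0.96 ± 0.26, adjusted p = 0.0284), were called higher, 0 were lower, and the median was 0.39.

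Of 13 class II antigen presentation genes, 3 were called higher and 0 lower, and 12 differences were positive, with a median of 0.38. SLA-DRA, a class II chain, had levels of 3.57, 5.48 and 5.72 in RFIneg and 3.21, 4.83 and 5.36 in RFIpl (0.46 ± 0.10, adjusted p = 0.0127), and all 7 of its probes were called. CD74, the invariant chain, differed by 0.42 ± 0.10 (adjusted p = 0.0128) and SLA-DRB1 by 0.54 ± 0.13 (adjusted p = 0.0161). Transcripts of such related chains can cross-hybridise, so the share of each in the signal is uncertain. Without RFIpl 3, 6 of the 13 were called higher, and with slide and brightness as blocks 0.

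Of 13 macrophage markers, the lysosomal proteases CTSD (0.58 ± 0.12, adjusted p = 0.00606) and CTSB (0.44 ± 0.12, adjusted p = 0.032) were called, and the median was -0.02. It turned to 0.03 with each array centred on its median. Of 35 cytokines and chemokines, CXCL9, which attracts T cells, was the 1 called (1.34 ± 0.39, adjusted p = 0.0394; median 0.06), and 2 were called without RFIpl 3. Of 26 complement and coagulation genes, VWF, CD59 and F5 were called higher and C4A lower (-1.11 ± 0.33, adjusted p = 0.0418), with a median of 0.02, and 2 were called lower without RFIpl 3. The list does not hold KLKB1 or the called genes F2 (-0.77, adjusted p = 0.034) and MASP2 (-1.02, adjusted p = 0.0478), which also belong to these cascades and are named after their values were seen. F2 was well above background on 5 RFIneg and 6 RFIpl arrays and MASP2 on 3 and 7, so their RFIneg levels are uncertain. With slide and brightness as blocks in limma neither was called (adjusted p = 0.118 and 0.254). VWF (0.50 ± 0.12, adjusted p = 0.0186) was also the 1 called of 13 endothelial markers, whose median was 0.22, and 2 were called without RFIpl 3. With slide and brightness as blocks 1 macrophage marker was called, and 0 genes of the cytokine, complement and endothelial lists. The lists of class I presentation (16 genes, median 0.16), interferon response (23 genes, median -0.13) and T and B cell markers (13 genes, median 0.16) held no gene called by limma with all arrays; without RFIpl 3 the count was 1 for class I and 0 for the other lists.

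Skeletal muscle markers were lower in 17 of 17 genes, with a median of -0.85, and none was called. Without RFIpl 2 the median was -0.10. The largest difference was that of TNNC1, the slow muscle troponin C, with levels of -5.57, -4.46 and -0.45 in RFIneg and -5.42, -2.60 and 6.81 in RFIpl (-1.99 ± 1.24, adjusted p = 0.356), where RFIpl 2 held the highest value.

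The restricted high line pigs were also measured. Comparisons with them share arrays with the comparison above, so the levels are only set side by side. CES1 had levels of 4.12, 5.38 and 6.78 in RFIplR, beside medians of 5.33 in RFIneg and 1.58 in RFIpl. CA3 had levels of 5.24, 6.51 and 7.44 in RFIplR, beside 6.91 and 4.47, and CLDN3 had levels of -4.12, -3.21 and -2.33, beside -3.59 and 0.96. UCP3 had levels of 5.37, 6.06 and 6.53 in RFIplR, beside 5.95 and 3.99.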

How the data were processed

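Arrays of 8 RFIneg, 8 RFIpl and 8 RFIplR pigs were used. The deposited scanner files hold spot intensity from Feature Extraction 10.7.3.1, spatially detrended, per the file headers. The deposited value table, on a log2 scale, covers 24582 probes, which match the log2 processed intensity of the scanner files after centring every array at its median (correlation at least 0.999995). The submitters' processing notes list R 2.10.0.

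Processed intensity, with a floor of 1, was converted to log2 and each array's 75th percentile over non-control probes was subtracted. Spots flagged as non-uniform and control spots were dropped before averaging the spots of each probe. Of 43603 probes, 28606 were kept, being well above background on at least 6 of 8 arrays of a group and missing on at most 6 of 24. A probe could thus be kept only through the group where it was high, which favours calling it. A single symbol was found for 12145 probes, 7185 of them by accession and 1367 by gene identifier in RefSeq (Sscrofa11.1 assembly, names only); 3593 kept the symbol of the files, 29 had several and 31429 none. Symbols beginning with LOC were not named. 1 gene is not reported here.

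limma 3.58.1 (lmFit, eBayes) in R 4.3.3 was fitted over 24 arrays with group and brightness (bright if the 75th percentile was over 200); p-values are two-sided. The fit was tested on simulated data. Named were the 14 largest called rises and falls, up to 4 called members of each list (otherwise the 2 with the smallest p), the 5 largest called probes each way and a panel of 15 genes; members outside this rule were named where a list's counts needed them. The members and lists were chosen with earlier results of these data known. The sample titles do not say whether replicate numbers pair the pigs. Deviations of RFIneg and RFIpl arrays with the same number had correlations of -0.22 to 0.06, which cannot show that no pairing existed. Data were read and drawn in R (data.table, version 1.17.8), Python 3.11.15, pandas 2.3.3, numpy 2.4.6 and matplotlib 3.10.9. The alternatives tried are given in the closing section. The number of arrays limits the precision.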

Additional observations from a re-analysis of the deposited data

Results flagged for a closer look

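In 21 of 230 tests of single levels, adjusted for brightness, 1 array stood apart from the other 7 of its group by Dixon's criterion, which chance meets in about 1 group in 20. The array labelled RFIpl 3 accounted for 9 of them. Its level was 1.61 for UCHL1 (others at most -0.22), 5.74 for SDR16C5 (others at most 3.52), 3.29 for SFRP5 (others at most 1.37) and 0.60 for CIART (others at most -0.06). It was -3.78 for CLDN3 (others at least 0.43), -3.20 for SH3GL3 (others at least -2.14), 1.99 for SRPX (others at least 2.96), -2.81 for LVRN (others at least -1.08) and 2.39 for IGFBP5 (others at least 3.28).

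RFIpl 2, the array with the highest muscle markers, accounted for 6. Its level was high for the glycolytic enzymes LDHA, at 6.23 (others 3.75 to 4.75), and ENO3, at 6.37 (others -1.22 to 0.73). ENO3 is itself one of the skeletal muscle markers, so its level is not separate from theirs. It was low for FASN, at 6.05 (others at least 7.65), SCD, at 4.36 (others at least 7.32), ACACA, at -0.79 (others at least 1.92), and PPARG, at 4.69 (others at least 5.44).

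RFIneg 7 stood apart for COL1A2 at 2.83 (others at least 3.38), ADIPOQ at 8.62 (others at most 8.35) and LEP at 0.88 (others at least 3.29). RFIneg 6 stood apart for RBP5 at -4.57 (others at least -0.53), and for a second RBP5 probe at -5.70 (others at least -2.08). RFIneg 8 stood apart for DBI at 7.59 (others at least 7.92).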

How the results depend on the processing

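The 1895 called probes depended on the brightness block and on single arrays. By limma, 59 were called with no block, 47 with scan day alone and 0 with slide alone (2411 at an unadjusted p under 0.05), against 416 with slide and brightness together and 94 with both blocks and without RFIpl 2. The 16 arrays of RFIneg and RFIpl, fitted without RFIplR, gave 1300. The bright arrays alone gave 297 and the dim ones 0 (2726 unadjusted). Normexp correction gave 368, no filter 1040, array quality weights 3599 and the replicate block with brightness 1108, although the titles do not say whether replicate numbers pair the pigs. Without RFIpl 1 and 2 the count was 550, without RFIpl 7 and 8 it was 884 and without slide 3 it was 804, the last and the blocked count without RFIpl 2 being chosen after seeing the data. Leaving out 1 array gave 1023 (RFIpl 4) to 3399 (RFIpl 3).

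The test of whether the difference depended on brightness called 7 probes (1275 unadjusted). It called 0 over 16 arrays (1356 unadjusted), with normexp (149), with median scaling (1202), with no filter (1428) and with probes well above background on all 16 arrays (539). It called 37 with quantile scaling, 4 in the deposited value table and 0 to 39 without 1 array.

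Of the 1895 called probes, 1801 kept their sign with slide alone, 1826 with scan day alone and 1884 in the dim arrays. Among the genes followed one by one, the sign turned, with the cause not tested, in the following, none of them called with all arrays. With slide alone and scan day alone as a block, PGK1 was at -0.137 and -0.0652 and INSIG2 at -0.064 and -0.0947, and with slide alone SRGN was at -0.0302. In the dim arrays alone TNNC1 was at 0.41, LPL at -0.0658, LEP at -0.26 and ACACA at -0.0906. ACACA was also at -0.041 with slide and brightness, -0.12 with scan day and brightness, -0.16 with array weights, -0.25 without RFIpl 1 and 2 and -0.72 with both blocks and without RFIpl 2, and ran from -0.33 to 0.28 when 1 array was left out. PPARG was at 0.0206 without RFIpl 7 and 8. Dim arrays and probes near background limit the low levels.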
